A study of Mus musculus with 6 samples.

Results

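Endothelial cells line the blood vessels, and mural cells (pericytes and smooth muscle cells) wrap them. The RNAs described here are 10 genes known as markers of these vascular cells, read in libraries that are labelled as microglia, the macrophages that live in brain and spinal cord. They were taken by name from the 55401 genes of the deposited count table, 7 as endothelial genes (Cldn5, Pecam1, Flt1, Ly6c1, Slco1a4, Cdh5 and Kdr) and 3 as mural genes (Pdgfrb, Rgs5 and Vtn). All 10 were found and all 10 had enough counts to be tested.

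The 6 libraries came from spinal cords of untreated mice aged 7 months, with cells caught on beads coated for CD11b, a myeloid surface integrin. The control group was non-transgenic C57BL/6 mice (NTg, replicates 7, 9 and 11). The other group was heterozygous double mutants labelled knock-in hATXN2-Q33 and hTDP-43, human forms of RNA-binding proteins linked to amyotrophic lateral sclerosis (ATXN2-Q33;TDP-43, replicates 8, 10 and 12, called mutant below). Every library held the microglia of 3 pooled cords, 9 animals per line, so a replicate is a pool and not an animal. Whether the human TDP-43 is a knock-in as well, and which promoter drives it, is not given in the sources used here. The comparison asks whether RNA levels differ between the genotypes.

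Endothelial cells of the brain and spinal cord form the blood-brain barrier: claudins and cadherins seal the contacts between cells, and transporters carry selected molecules across. Vascular endothelial growth factor acts on endothelial cells through receptor tyrosine kinases. Endothelial cells release PDGF-B, which holds pericytes on the vessel wall through the receptor PDGFR-beta. A cell caught by way of CD11b would be a microglial cell or another myeloid cell, and most of the 10 genes are not known as microglial genes; Pecam1 is also known from leukocytes and platelets.

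Library totals ran from 12553570 to 22854628 counts, and mitochondrial genes took 4.67% to 5.71%. The labelled cell type was matched by its markers: Csf1r, the receptor that keeps microglia alive, averaged 4319 CPM (counts-per-million, with library sizes scaled by TMM) and Cx3cr1, the fractalkine receptor, 1814 CPM. The sum over 18 microglial markers was 19588, 17661 and 22132 CPM across NTg replicates 7, 9 and 11 and 19351, 15569 and 22538 CPM across mutant replicates 8, 10 and 12. NTg replicate 9 and mutant replicate 10 were the lowest of their groups, and they are the libraries in which all 10 members were highest. The file headers name the alignments of NTg replicates 7 and 9 as combined, and those of the other 4 libraries not, so this property is found in NTg only.

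Promoter sequences are given because the members had nearly the same order of libraries. RefSeq windows on GRCm38.p6, up to 250 bases before the gene's start, were used for 7 of the 10 members. No window of Pecam1, Cdh5 or Pdgfrb was used, and their absence here does not mean that RefSeq lacks one. For ETS factors, a family known for endothelial genes, the hexamers CAGGAA and CCGGAA were searched on both strands, and neither contains the other. Both are longer than the core of the binding motif, GGAA, which was not searched alone. A window without a match can therefore still hold the core. Of the 7 members, 2 held 1 match each, Kdr and Rgs5, against 35.06% of 32851 windows in the table. The windows of the junction gene Cldn5, the growth factor receptor gene Kdr and the pericyte gene Rgs5 are shown 5′ to 3′ as 1 member of each role, with matches in capitals. They lie at chr16:18776597-18776846 (plus strand), chr5:75978459-75978705 (minus strand) and chr1:169655251-169655500 (plus strand).
Cldn5: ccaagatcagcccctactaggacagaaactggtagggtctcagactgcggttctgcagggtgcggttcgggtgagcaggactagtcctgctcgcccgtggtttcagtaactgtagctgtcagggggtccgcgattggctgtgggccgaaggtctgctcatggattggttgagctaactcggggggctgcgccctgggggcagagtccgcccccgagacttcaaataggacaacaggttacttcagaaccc
Kdr: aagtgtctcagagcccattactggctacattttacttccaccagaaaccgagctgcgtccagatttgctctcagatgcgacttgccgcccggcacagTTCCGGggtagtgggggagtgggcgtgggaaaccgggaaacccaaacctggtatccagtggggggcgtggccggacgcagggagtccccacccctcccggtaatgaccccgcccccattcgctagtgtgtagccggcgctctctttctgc
Rgs5: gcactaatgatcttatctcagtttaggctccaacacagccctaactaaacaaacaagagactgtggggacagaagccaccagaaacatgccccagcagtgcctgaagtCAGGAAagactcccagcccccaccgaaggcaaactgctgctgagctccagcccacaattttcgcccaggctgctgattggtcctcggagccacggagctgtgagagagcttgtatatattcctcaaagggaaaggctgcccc
Cldn5 held no match, while Kdr has TTCCGG, the reverse complement of CCGGAA, and Rgs5 has CAGGAA. A match here is a string of letters, and these counts bear on no factor.

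The pair in which the members were highest, NTg replicate 9 and mutant replicate 10, has 1 library from each genotype. This order of the highest pair was found for 1180 of 10396 genes with a mean of at least 5 CPM (11.35%). The highest library exceeded the lowest 2.18-fold for Pecam1 and up to 6.18-fold for Slco1a4, with a median of 4.57-fold, against a median of 1.36-fold over the same 10396 genes. At least 3-fold was reached by 9 of the 10 members and by 4.29% of those genes. In bulk RNA of this kind, fewer cells of a type and less RNA per cell cannot be told apart.

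**Figure D1:**
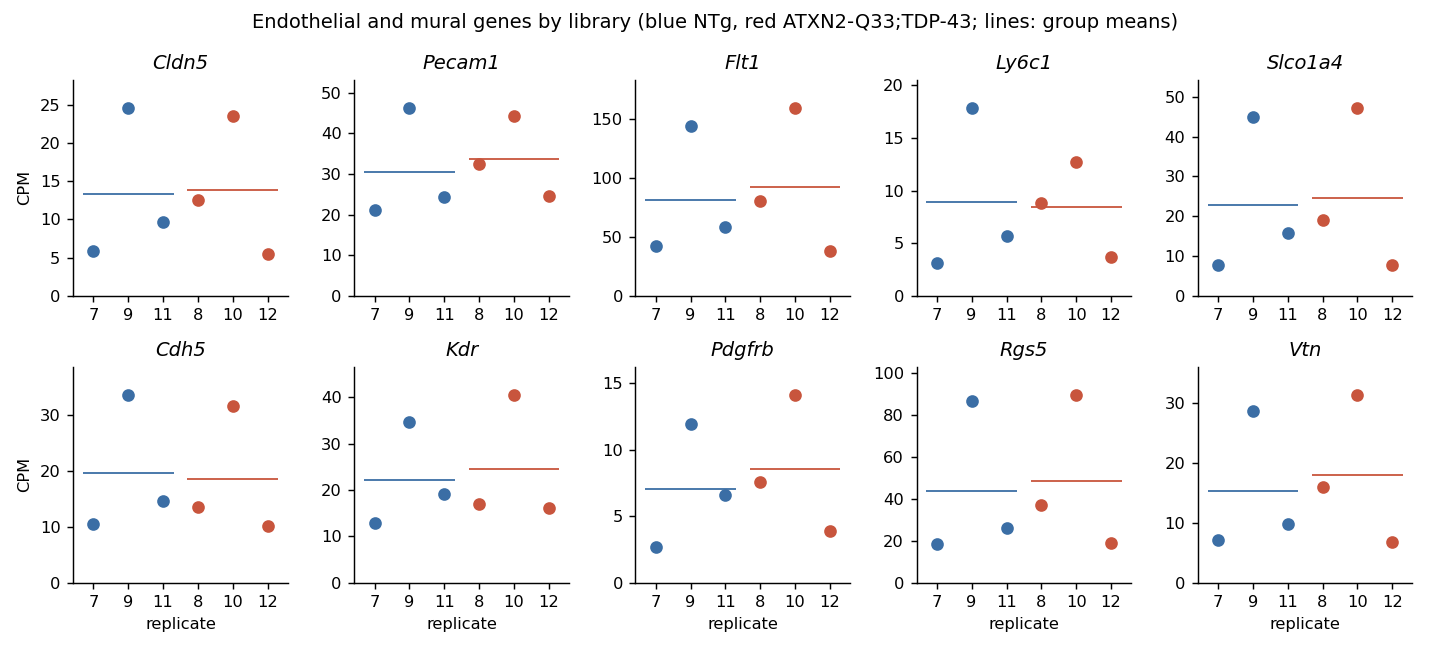
Scaled counts (CPM, linear axes from 0) of the 10 members, 1 point per library, NTg in blue and ATXN2-Q33;TDP-43 in red, with a line at each group's mean of 3 libraries. In every panel NTg replicate 9 and mutant replicate 10 are the highest points, and the group means lie close together.

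The junction genes come first. Cldn5 encodes claudin-5, the main claudin of blood-brain barrier tight junctions (ENSMUSG00000041378, mm10 chromosome 16, 18776847 to 18778262, plus strand). It measured 5.80, 24.6 and 9.67 CPM across NTg replicates 7, 9 and 11 and 12.5, 23.5 and 5.51 CPM across mutant replicates 8, 10 and 12, from 72 to 373 counts. NTg replicate 9 and mutant replicate 10 were close to each other and far above the rest, and the groups overlapped almost fully. The group values were 13.35 ± 9.91 and 13.8 ± 9.06 CPM (SD, n = 3 each), and the log2 fold change was 0.05 (95% interval -1.88 to 1.97, SE 0.75; edgeR adjusted p = 0.9996). Cdh5 encodes VE-cadherin, the cadherin of endothelial adherens junctions (ENSMUSG00000031871, chromosome 8, 104101625 to 104144511, plus strand). It stood at 10.4, 33.5 and 14.6 CPM across the NTg pools and 13.6, 31.55 and 10.1 CPM across the mutant pools. The order was the same at the top, but here NTg replicate 11 stood above mutant replicate 8. The log2 fold change was -0.09 (95% interval -1.72 to 1.55, SE 0.64).

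Pecam1 encodes an adhesion molecule of endothelial cells, leukocytes and platelets (ENSMUSG00000020717, chromosome 11, 106654217 to 106750628, minus strand). Its levels were 21.2, 46.25 and 24.2 CPM across the NTg pools and 32.6, 44.3 and 24.6 CPM across the mutant pools. It varied least of the members and was the only member for which NTg replicate 7 and mutant replicate 12 were not the 2 lowest. The log2 fold change was 0.14 (95% interval -0.74 to 1.03, SE 0.36), the narrowest interval of the 10. As a share of the summed CPM of the 7 endothelial members, Pecam1 made up 20.45%, 13.4% and 16.5% in NTg and 17.7%, 12.3% and 23.25% in the mutants. The share was lowest in the libraries in which the other members were highest.

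Flt1 and Kdr encode receptors 1 and 2 of vascular endothelial growth factor; the former is known to hold the ligand with little signal and the latter to carry most of the signal. Flt1 (ENSMUSG00000029648, chromosome 5, 147561604 to 147726011, minus strand) measured 42.4, 144.3 and 58.01 CPM across the NTg pools and 80.8, 159.3 and 38.1 CPM across the mutant pools. Kdr (ENSMUSG00000062960, chromosome 5, 75932827 to 75978458, minus strand) measured 12.97, 34.6 and 19.1 CPM across the NTg pools and 16.99, 40.5 and 16.05 CPM across the mutant pools. Mutant replicate 10 was the highest for both genes and NTg replicate 9 the next, but the pair spread differently: 4.19-fold from lowest to highest library for Flt1 and 3.12-fold for Kdr. Their log2 fold changes were 0.18 (95% interval -1.76 to 2.12, SE 0.74) for Flt1 and 0.14 (95% interval -1.22 to 1.499, SE 0.54) for Kdr.

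Slco1a4 encodes an organic anion transporter of the barrier endothelium (ENSMUSG00000030237, chromosome 6, 141805440 to 141856199, minus strand). Its values were 7.65, 44.9 and 15.7 CPM across the NTg pools and 19.1, 47.2 and 7.64 CPM across the mutant pools, from 95 to 695 counts. No member varied more: within NTg the libraries differed 5.86-fold and within the mutants 6.18-fold, while the ratio of the group means was 1.08. The log2 fold change was 0.11 (95% interval -2.41 to 2.63, SE 0.96), so that a mutant level 0.189 to 6.18 times the NTg level lies inside the interval. Set against Pecam1 in the same library, Slco1a4 stood at a CPM ratio of 0.361, 0.970 and 0.646 in NTg and 0.588, 1.06 and 0.311 in the mutants.

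Ly6c1 encodes a small surface protein anchored by a lipid, known from endothelium and also from some leukocytes (ENSMUSG00000079018, chromosome 15, 75044018 to 75048830, minus strand). It measured 3.14, 17.9 and 5.72 CPM across the NTg pools and 8.83, 12.8 and 3.69 CPM across the mutant pools, from 39 to 271 counts. NTg replicate 9 stood above mutant replicate 10, and their 95% Poisson intervals, which cover counting error only, did not overlap (a lower bound of 15.8 CPM against an upper bound of 14.7 CPM). The log2 fold change was -0.09 (95% interval -2.01 to 1.84, SE 0.77). Ly6c1 has a close neighbour, Ly6c2, known from monocytes (ENSMUSG00000022584, chromosome 15, 75108158 to 75111970, minus strand). Of the 50-base stretches of Ly6c1 transcripts, 32.77% occur in another gene as well and 21.49% in Ly6c2. Reads with several alignments were not counted under the recorded options, so both levels are uncertain and can be under-counted.

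The windows of up to 250 bases before these neighbours are shown because their letters are alike while their levels by library were not. They lie on the minus strand at chr15:75048838-75049087 and chr15:75111972-75112221 (RefSeq, GRCm38.p6), and capitals mark the longest run they share, of 20 bases. Aligned with gaps allowed, 164 of the 216 bases that stood opposite a base were identical (75.9%). Bases opposite a gap, out of 250 in each window, are not in this share. The same share for unrelated windows was not computed.
Ly6c1: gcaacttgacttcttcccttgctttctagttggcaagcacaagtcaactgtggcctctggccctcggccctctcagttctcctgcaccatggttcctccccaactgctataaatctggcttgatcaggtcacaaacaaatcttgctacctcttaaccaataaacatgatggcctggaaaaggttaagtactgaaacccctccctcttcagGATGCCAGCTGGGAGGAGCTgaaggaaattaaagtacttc
Ly6c2: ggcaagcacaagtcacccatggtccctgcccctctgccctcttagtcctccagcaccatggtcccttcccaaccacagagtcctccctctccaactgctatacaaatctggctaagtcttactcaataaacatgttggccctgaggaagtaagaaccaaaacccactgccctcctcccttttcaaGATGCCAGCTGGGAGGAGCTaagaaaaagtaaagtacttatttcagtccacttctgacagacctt
Ly6c2 measured 3.54, 2.24 and 3.54 CPM across the NTg pools and 11.9, 7.26 and 1.25 CPM across the mutant pools. Its highest library was mutant replicate 8, and NTg replicate 9, the top library of Ly6c1, was its second lowest. The CPM ratio of Ly6c1 to Ly6c2 ran from 0.739 in mutant replicate 8 to 7.97 in NTg replicate 9. The log2 fold change of Ly6c2 was 1.12 (95% interval -0.63 to 2.87, SE 0.73, edgeR adjusted p = 0.9996).

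**Figure D2:**
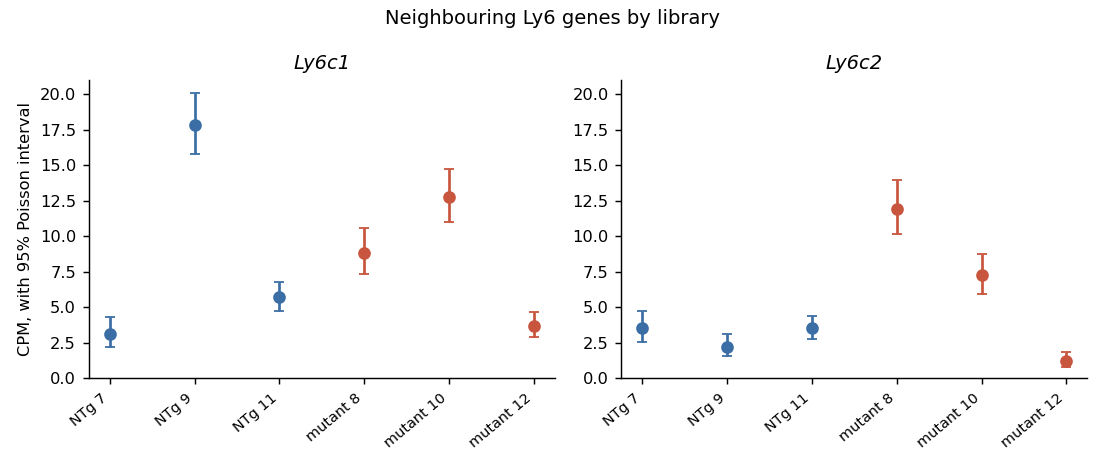
CPM of Ly6c1 and Ly6c2 (linear axes from 0) in each library, with 95% Poisson intervals of the counts; NTg blue, ATXN2-Q33;TDP-43 red. Ly6c1 is highest in NTg replicate 9 at 17.9 CPM, where Ly6c2 is at 2.24 CPM, and Ly6c2 is highest in mutant replicate 8 at 11.9 CPM.

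The mural genes had the same order at the top, with mutant replicate 10 first and NTg replicate 9 next for all 3. Rgs5, a regulator of G protein signalling and a pericyte marker (ENSMUSG00000026678, chromosome 1, 169655501 to 169695813, plus strand), measured 18.5, 86.7 and 26.05 CPM across the NTg pools and 36.9, 89.6 and 19.1 CPM across the mutant pools. The third library, mutant replicate 8, was far below that pair. Its log2 fold change was 0.15 (95% interval -2.16 to 2.45, SE 0.88). Vtn encodes vitronectin, a matrix protein made by pericytes in the central nervous system and by the liver (ENSMUSG00000017344, chromosome 11, 78499091 to 78502324, plus strand). It measured 7.17, 28.7 and 9.80 CPM across the NTg pools and 15.95, 31.35 and 6.70 CPM across the mutant pools. Mutant replicate 8 came next and the groups overlapped, with a log2 fold change of 0.24 (95% interval -1.82 to 2.29, SE 0.79). Of 11 matched genes listed as plasma proteins of the liver with Vtn, Vtn alone had enough counts to be tested; Alb, albumin, averaged 0.554 CPM and 5 had no count in any library.

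Pdgfrb, the receptor by which pericytes respond to PDGF-B (ENSMUSG00000024620, chromosome 18, 61045150 to 61085061, plus strand), had the lowest counts of the 10, between 33 and 208. It measured 2.66, 11.9 and 6.58 CPM across the NTg pools and 7.57, 14.1 and 3.84 CPM across the mutant pools. The groups overlapped, and the log2 fold change was 0.26 (95% interval -1.35 to 1.87, SE 0.66), the highest of the 10. Rgs5 took 61.1% to 68.1% of the summed mural CPM in every library.

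Levels of different genes can be set side by side only per length. Per kilobase of exon, the mean over 6 libraries was 10.15 CPM for Rgs5, 9.60 for Cldn5, 8.19 for Vtn, 6.45 for Flt1, 5.17 for Pecam1, 5.17 for Ly6c1, 4.51 for Cdh5, 3.69 for Slco1a4, 2.59 for Kdr and 1.42 for Pdgfrb. The libraries' ranges of every pair of neighbours in this order overlapped. The ends of the order were apart: Pdgfrb ran from 0.485 to 2.58 CPM per kilobase, wholly below Rgs5 (4.08 to 19.7), Cldn5, Vtn, Flt1 and Pecam1.

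Between the genotypes, none of the 10 members passed the edgeR test at an adjusted p of 0.05, and none of the 16248 genes tested did (0%). At an unadjusted p under 0.05 stood 0 members and 368 genes (2.26%), and the smallest p of a member was 0.7046, for Pecam1. The groups overlapped for all 10 members, against 1113 genes (6.85%) without overlap. For the members an exact permutation test (two-sided) gave p-values that ran from 0.7 to 1.0, where the smallest that 3 against 3 libraries allow is 0.1. DESeq2 called 7 genes (398 at an unadjusted p under 0.05) and limma voom 0 (291), no member among them.

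The estimates leaned little to either side, and they are wide. The log2 fold change was above 0 for 8 of the 10 members (for all 10 when scaled to microglial marker counts) and for 51.99% of all genes, with medians of 0.14 over the members and 0.01 over all genes. The standard errors ran from 0.36 to 0.96 with a median of 0.75, against a median of 0.21 over all genes. At the median of the members' interval bounds, a mutant level of 0.290 to 3.79 times the NTg level is inside the interval. The smallest genotype difference that these libraries could show was not computed.

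**Figure D3:**
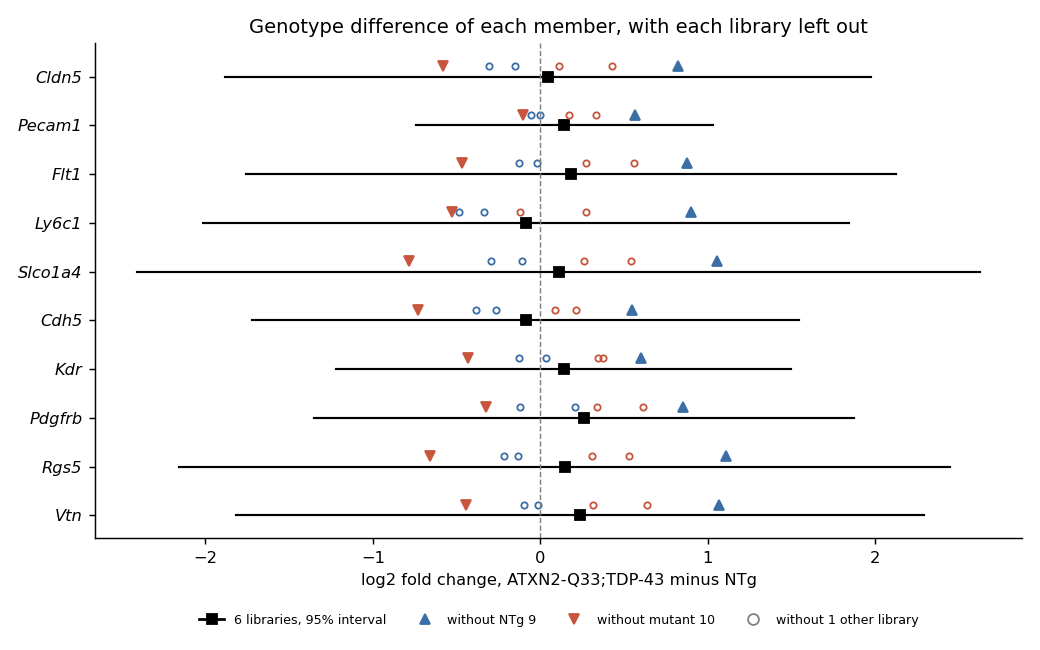
Log2 fold change of each member, ATXN2-Q33;TDP-43 minus NTg, with its 95% interval (edgeR, 6 libraries; black), and above it the estimates with each library left out. Every interval includes 0; without NTg replicate 9 all 10 estimates are above 0, and without mutant replicate 10 all are below.

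The direction rested on which library was in the fit. Without NTg replicate 9 the median log2 fold change of the members was 0.86, and without mutant replicate 10 it was -0.50. Rgs5 went from 1.11 to -0.66 between these fits, and Slco1a4 from 1.06 to -0.78. With both libraries left out the median was 0.25. With the combined alignments as a covariate, so that the NTg side rests on NTg replicate 11, it was 0.53. No member passed the threshold in any of these fits.

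Summed over the 7 endothelial members, NTg replicates 7, 9 and 11 stood at 103.6, 346.0 and 147.0 CPM and mutant replicates 8, 10 and 12 at 184.4, 359.1 and 105.6 CPM. The 3 mural members summed to 28.35, 127.3 and 42.4 CPM and to 60.4, 135.1 and 29.6 CPM. The mural sum thus spread wider, 4.77-fold from lowest to highest library against 3.47-fold. Its ratio to the endothelial sum was highest in NTg replicate 9 and mutant replicate 10: the endothelial sum was 3.65, 2.72 and 3.46 times the mural in NTg and 3.05, 2.66 and 3.57 times in the mutants. Neither sum was separated by genotype, with 198.9 ± 129.3 and 216.4 ± 129.7 CPM for the endothelial and 66.0 ± 53.5 and 75.0 ± 54.25 CPM for the mural members (SD, n = 3 each).

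In absolute terms the 10 genes were a trace of each library. They took 0.0131% (95% Wilson interval 0.0124% to 0.0137%) of the counts of NTg replicate 7 and 0.0519% (0.0507% to 0.0531%) of those of mutant replicate 10, the lowest and highest values. For every 1000 counts of microglial markers, the members gave 6.74, 26.8 and 8.56 counts in NTg and 12.65, 31.7 and 6.00 in the mutants. With this denominator mutant replicate 10 was again the highest, mutant replicate 12 in place of NTg replicate 7 was the lowest, and the spread was 5.29-fold.

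**Figure D4:**
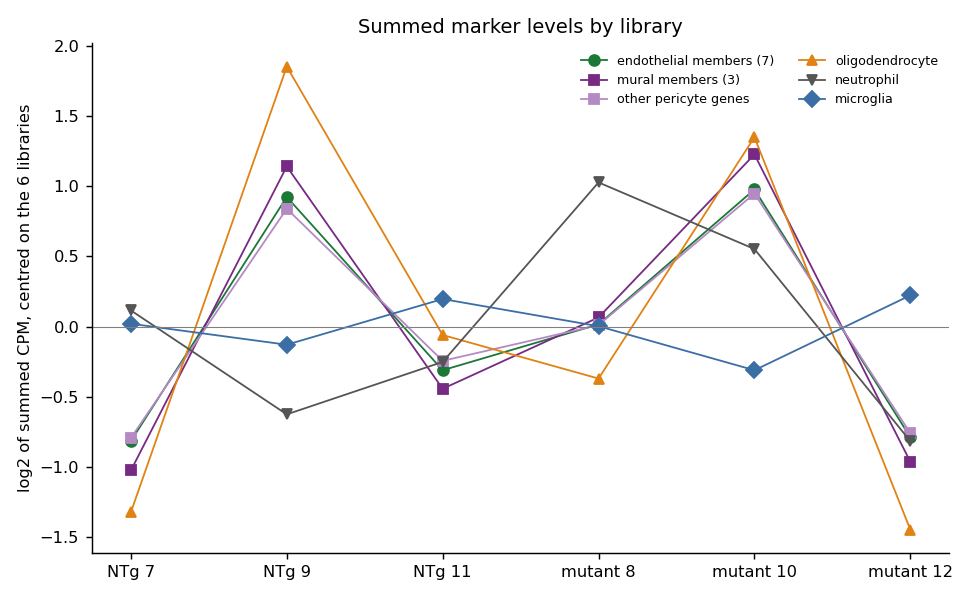
Log2 of the summed CPM of 6 marker lists in each library, centred on the mean of the 6 libraries; each line is 1 list. The endothelial members, mural members, other pericyte genes and oligodendrocyte genes peak in NTg replicate 9 and mutant replicate 10, the neutrophil genes peak in mutant replicate 8 and the microglial genes are lowest in mutant replicate 10.

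Genes of the vascular lists outside the 10 differed widely in how far the libraries were apart. Of 70 tested genes in the lists of other endothelial genes, barrier genes and other pericyte genes, 43 differed at least 3-fold between libraries, and 39 of these had NTg replicate 9 and mutant replicate 10 as the highest pair. The exceptions were Pglyrp1, Anpep, Ifitm1 and Gper1. A further 19 differed less than 2-fold, and 2 of them, Ocln and Slc2a1, had that pair on top, while 8 lay between these limits. These fold limits were chosen after the values were seen, and at the low end of the lists, down to 0.756 CPM, counting error alone widens the ratio.

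The genes that differed at least 3-fold include much of the endothelial machinery; those named here were chosen after their values were seen. Ptprb, the phosphatase that acts on VE-cadherin and Tie2, measured 19.1, 76.5 and 37.5 CPM across the NTg pools and 37.1, 78.8 and 16.6 CPM across the mutant pools. Tek, the angiopoietin receptor Tie2, averaged 11.7 CPM and spread 6.23-fold. Among the barrier genes, Abcb1a, the efflux pump P-glycoprotein, spread 6.02-fold, Spock2, a proteoglycan, 5.17-fold, and Lef1, a transcription factor of Wnt signalling, 9.82-fold.

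The genes that differed less than 2-fold included the most abundant of the endothelial and barrier lists. Which cells their RNA came from was not tested. Cd34, a sialomucin of endothelial and blood-forming cells, measured 158.3, 159.4 and 177.7 CPM across the NTg pools and 149.9, 143.6 and 170.8 CPM across the mutant pools. Lmo2, a transcription cofactor of blood and vessel development, spread 1.29-fold around 143.9 CPM, and Eng, a co-receptor of TGF-beta, 1.23-fold around 102.9 CPM. In the barrier list Slco2b1, a transporter also known from microglia, averaged 779.8 CPM and spread 1.53-fold. Tjp1, the scaffold protein ZO-1, and Slc2a1, the glucose transporter GLUT1, spread 1.18-fold and 1.40-fold; Slc2a1 was highest in NTg replicate 9 and mutant replicate 10, at 204.1 and 218.1 CPM. Because of these genes the summed list of other endothelial genes spread only 1.33-fold from the lowest to the highest library and the barrier sum 1.07-fold, although the median gene of the former spread 4.73-fold.

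**Figure D5:**
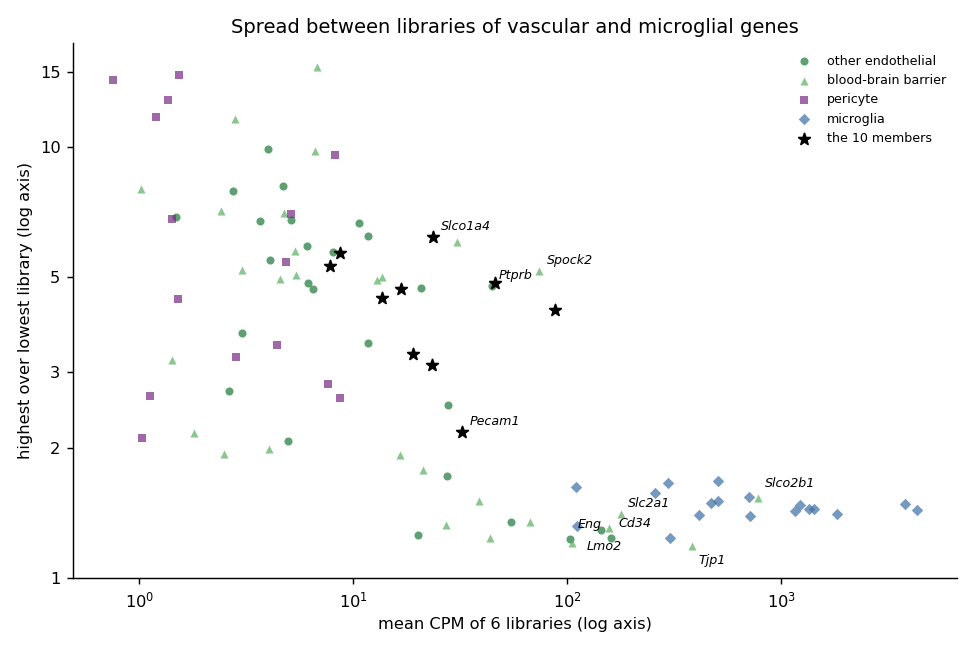
Ratio of the highest to the lowest library against mean CPM of 6 libraries (both axes log) for tested genes of the other endothelial, blood-brain barrier, pericyte and microglia lists, and the 10 members as stars. The members lie between 2.18-fold and 6.18-fold. The microglial genes and Cd34, Lmo2, Eng, Tjp1 and Slco2b1, abundant genes of the endothelial and barrier lists, lie under 2-fold.

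None of the genes listed for vessels or for other cells passed the threshold in the edgeR fit. Other pericyte genes summed to 27.8, 86.2 and 40.7 CPM across the NTg pools and to 48.5, 93.0 and 28.5 CPM across the mutant pools, the order of the mural members, and 12 of 15 tested had the same highest pair. Named by mean level, Notch3, the Notch receptor of mural cells, spread 2.61-fold, Abcc9, a potassium channel subunit, 9.62-fold and Cspg4, the NG2 proteoglycan, 2.83-fold. Smooth muscle genes summed to 33.2, 85.1 and 69.7 CPM across the NTg pools and to 57.4, 102.9 and 41.2 CPM across the mutant pools, with the same pair on top, as had 4 of the 9 genes tested: Cald1, caldesmon, and Smtn, smoothelin, had it, while Myh11, the smooth muscle myosin, was highest in NTg replicate 11 at 18.4 CPM. Of the arterial list 4 of 10 tested and of the venous list 3 of 6 had the pair on top; the venous sum was mostly Icam1, an adhesion molecule of endothelium and leukocytes, at 1161 CPM and 1.30-fold. The next venous genes were Lcn2, lipocalin-2, also a neutrophil gene, which was highest in mutant replicate 8 at 123.0 CPM, and Il1r1, the interleukin-1 receptor, which spread 1.67-fold. Of the arterial genes, Efnb2, the arterial ephrin, spread 1.25-fold, and Unc5b and Dll4, a netrin receptor and a Notch ligand, 4.51-fold and 4.53-fold.

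Of the ligands of vessel signalling, 7 of 12 tested differed less than 2-fold between libraries and 3 at least 3-fold (Cxcl12, Dll4 and Pdgfd). Of the receptors, 14 of 22 differed less than 2-fold and 7 at least 3-fold (Flt1, Kdr, Pdgfrb, Tek, Tie1, Flt4 and Tspan12). These 7 and the 3 ligands all had NTg replicate 9 and mutant replicate 10 on top. Of them, Flt1, Kdr and Pdgfrb are members, and Tek and Tie1 were counted above with the other endothelial genes. The abundant ligands were Tgfb1 at 358.1 CPM, Pdgfb, the ligand of PDGFR-beta, at 304.3 CPM and Vegfb, a ligand of the receptor made from Flt1, at 42.95 CPM, spreading 1.17-fold, 1.14-fold and 1.30-fold. The receptors Tgfbr1, Tgfbr2 and Notch1 spread 1.17-fold, 1.22-fold and 1.12-fold. The junction partners Ctnnb1, beta-catenin, and Jup, plakoglobin, spread 1.27-fold and 1.30-fold. The chemokine Cxcl12, named like the other genes past 3-fold after its values were seen, measured 9.18, 45.85 and 13.4 CPM across the NTg pools and 22.55, 59.4 and 9.45 CPM across the mutant pools.

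Among tested genes with a mean of at least 5 CPM that are not members and have a proper symbol (gene models named by clone or number, and names marked as pseudogenes, left out), those whose profile was nearest to the members were named by the root-mean-square difference (RMS) of centred log2 values over the 6 libraries. Of 9447 such genes, Fgd5, an exchange factor known from endothelium, was nearest to the mean endothelial profile (RMS 0.0642), with 3.30, 12.9 and 4.95 CPM across the NTg pools and 5.56, 12.15 and 3.17 CPM across the mutant pools. It was followed by Vwa1, Lsr, Heg1, Jcad, Cavin1, Unc13c, Sptbn1, Tns2, Car4, Slco1c1 and Mmrn2, up to an RMS of 0.162. Nearest to the mural profile was Nos3, the endothelial nitric oxide synthase (RMS 0.0595), followed by Timp3, Prom1, Tns2, Jcad, Cyyr1, Lsr and Akap12, up to 0.122. Tns2, Jcad and Lsr stood in both lists. The 2 profiles do not tell the cell types apart. Of the endothelial members, Cldn5, Flt1, Ly6c1 and Slco1a4 lay nearer to the mural mean profile than to the endothelial one. Cdh5, Kdr and Pecam1 lay nearer to the endothelial profile, and the mural members nearer to the mural. Every member's own values helped to make the mean profile of its own list, most of all for the 3 mural members. Nearness to that profile is therefore partly built in. Of the members, Pecam1 was farthest from both mean profiles (0.329 and 0.437), which its own values helped to make for the endothelial one.

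Markers of other cells were read beside these. Oligodendrocyte markers moved with the members: their sum was 187.0, 1691 and 448.9 CPM across the NTg pools and 362.0, 1193 and 171.6 CPM across the mutant pools, and 10 of 11 tested had the same highest pair. The exception was Mbp, myelin basic protein, which stood at 818.0 CPM in NTg replicate 9 but at 261.3 CPM in NTg replicate 11 and 250.6 CPM in mutant replicate 10. Mobp, another myelin gene, stood at 268.7 CPM in NTg replicate 9 and 93.5 CPM in mutant replicate 10. Neutrophil markers did not move with them; their sum was highest in mutant replicate 8 at 2406 CPM and S100a9 and Ngp, proteins of neutrophil granules and cytosol, reached 562.2 and 372.8 CPM there, while Csf3r, the G-CSF receptor, spread 1.16-fold. Fibroblast markers, 6 of 12 tested, summed to 5.88 to 34.7 CPM, highest in mutant replicate 8. The collagen genes Col1a1 and Col1a2 stood at 18.6 and 9.20 CPM there and made up most of that sum. Pdgfra was also highest there, at 1.26 CPM. The growth factor gene Igf2 stood at 3.19 CPM there and was highest in mutant replicate 10 at 3.325 CPM. Col3a1 was highest in NTg replicate 11 and Dcn in NTg replicate 9, at 1.09 and 1.515 CPM. Of the lymphatic endothelial markers, 4 of 7 were tested: Prox1, a transcription factor, spread 1.32-fold around 48.2 CPM, while Reln, reelin, averaged 6.13 CPM and Flt4, a further VEGF receptor, 2.62 CPM. What part these cells' RNA has in the members' levels was not tested.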

How the data were processed

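Libraries of spinal cord microglia (3 NTg and 3 ATXN2-Q33;TDP-43) were made, per the labels' protocols, from ribosomal RNA-depleted total RNA with a low-input kit that keeps strand. The authors deposited unnormalized counts of fragments for each gene. Per the file headers these come from featureCounts 1.6.1 with GENCODE vM25, strand setting 2, chimeric pairs left out and a fragment counted for every gene it overlaps. Trimming was by Trim Galore 0.4.1 and alignment to mm10 by TopHat2, and DESeq2 is also named, per the submitters' processing notes. No member has an exon overlap with another gene on either strand. The table's 6 columns of other samples were not used.

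Symbols were taken by identifier (55141 of 55401 genes matched). Library pairs differed beyond sampling noise (chi-square per degree of freedom 6.56 to 37.2), so each counted as 1 replicate. Genes passing filterByExpr (minimum count 10, 16248 genes) entered edgeR 4.0.16 (R 4.3.3) with TMM, a robust quasi-likelihood fit, mutant minus NTg with no covariate, Benjamini-Hochberg adjustment, threshold 0.05. CPM use TMM-scaled totals. Exact permutation tests used log2(CPM + 0.5). The fit was tested on simulated data. Alternatives were DESeq2 1.42.0, limma voom 3.58.1, other scalings, filters and pseudocounts, leaving out libraries, the combined alignments as covariate and a block of neighbouring sample codes.

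The members and lists were chosen with earlier results of these data known. Named are all members, of each list the members past the threshold or else the 3 tested with the highest mean CPM, the 12 and 8 genes nearest to the endothelial and mural profiles, and Ly6c2; other names are marked where they appear, and some genes that the rule takes are not reported here. Intervals on counts and shares cover counting error only, since amplified reads are not independent molecules.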

Additional observations from a re-analysis of the deposited data

How the results depend on the processing

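No member passed the threshold in any setting tried. The number of all genes that did was 0 in the edgeR fit, 7 with DESeq2, 6 with no filter, 1 with NTg replicate 9 and mutant replicate 10 both left out, and 71 with neighbouring sample codes as a replicate block. It ran from 0 to 2 with 1 library left out, the 2 being without mutant replicate 12. The labels name no pairs, and the groups share no replicate number, so the block is a description. Under it 71 of the 16248 genes tested passed, and no share was computed for the listed genes alone. Of the 71, 6 were listed genes (Map2, Tubb1, Rarres2, Hydin, Ccdc153 and Foxj1), none of them from a list of vessel cells. The cause was not tested. The median log2 fold change of the members ran from -0.50 to 0.86 with 1 library left out and was above 0 in 3 of these 6 fits. By member these fits ran from -0.58 to 0.82 for Cldn5, -0.10 to 0.57 for Pecam1, -0.47 to 0.87 for Flt1, -0.53 to 0.90 for Ly6c1, -0.78 to 1.06 for Slco1a4, -0.73 to 0.55 for Cdh5, -0.43 to 0.60 for Kdr, -0.33 to 0.85 for Pdgfrb, -0.66 to 1.11 for Rgs5 and -0.44 to 1.07 for Vtn. The sign also changed in these fits: Ly6c1 stood at 0.0029 and Cdh5 at 0.0349 when scaled to microglial marker counts. With limma voom Cldn5 stood at -0.0342, Ly6c1 at 0.0019 and Slco1a4 at -0.0066. Ly6c1 was 0.47 with NTg replicate 9 and mutant replicate 10 left out and 0.034 under the block, while a covariate for the combined alignments put Ly6c1 at 0.55 and Cdh5 at 0.33. Precision was limited by the 3 libraries a group, which all tested genes share, and the lowest count of a member in a library was 33. The members also varied more between libraries of a group. Their median coefficient of variation as estimated by edgeR was 0.609, against 0.234 over all genes.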

Other observations

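Marker lists of other cells each had their own order of libraries. Ependymal markers, 7 of 9 tested, summed to 17.1, 35.2 and 23.3 CPM in NTg replicates 7, 9 and 11 and to 28.5, 114.7 and 46.95 CPM in mutant replicates 8, 10 and 12. Their best expressed genes were Hydin, Foxj1 and Ccdc153, genes of motile cilia, with 44.0, 22.1 and 22.6 CPM in mutant replicate 10. Astrocyte markers (Slc1a3, Sox9 and Slc1a2 the highest) ran from 116.0 to 236.1 CPM in sum, also highest in mutant replicate 10. Slc1a3 itself was highest in mutant replicate 12, at 93.5 CPM against 77.1 CPM in mutant replicate 10. Aldh1l1 was highest in NTg replicate 7 at 2.82 CPM, and the other tested astrocyte genes in mutant replicate 10. Erythroid markers (Hba-a2, Hba-a1 and Hbb-bs) ran from 10.3 to 118.0 CPM and were highest in mutant replicate 8; these globin genes have near-identical copies and their split is uncertain. Neuron markers (Map2, Nefl and Snap25) ran from 31.0 to 51.0 CPM, platelet markers (Pf4, Gp9 and Tubb1) from 19.6 to 30.3 CPM and monocyte markers (Nr4a1, Fn1 and Chil3) from 743.7 to 936.0 CPM. None of these lists had a member past the edgeR threshold.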
